A study of Homo sapiens with 12 samples.

Results

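The genes that hold cells in G1 or pass them into S phase were followed in pancreatic carcinoma cells sorted with the GCTM-5 antibody. They were 10 genes chosen by name: the D-type cyclins *CCND1*, *CCND2* and *CCND3*, the E-type cyclins *CCNE1* and *CCNE2*, the CDK inhibitors *CDKN1A*, *CDKN1B* and *CDKN1C*, the transcription factor *E2F1* and the retinoblastoma gene *RB1*. All 10 were found among the 23346 genes listed by symbol. The RNA came from 12 samples of SW1990 and CFPAC-1, established human pancreatic adenocarcinoma cell lines, with 3 GCTM-5 negative and 3 GCTM-5 positive samples of each. GCTM-5 binds a surface glycoprotein antigen that each of these lines carries on some of its cells and lacks on others. All groups shared the same culture conditions and the same staining before the sort, although the sources differ on the medium and the secondary antibody. No source used here names an engineered allele or a drug. Cells between the negative and strongly positive gates are not represented, and each sample pools the cells of its gate in whatever phase of the cycle they were. The replicates were separate sorts, and no source used here says that they came from separate cultures, so p-values measure only the spread between these samples.

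D-type cyclins bind the kinases CDK4 and CDK6 when growth signals arrive, and the active kinase begins to phosphorylate the retinoblastoma protein RB1. E-type cyclins with CDK2 complete that step. Unphosphorylated RB1 holds E2F1 and its relatives, and their release switches on genes for DNA replication as well as *E2F1*, *CCNE1* and *CCNE2* themselves. The products of *CDKN1A*, *CDKN1B* and *CDKN1C* bind and restrain the cyclin and kinase complexes, and *CDKN1A* is a standard target of p53. The INK4 inhibitors *CDKN2A* and *CDKN2B*, which block CDK4 and CDK6, are often lost in pancreatic adenocarcinoma.

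Values were the RPKM of the authors, reads scaled to gene length and to library size, so levels of different genes can be set side by side. Library totals recovered from the values ranged from 9969697 reads in CFPAC-1 positive replicate 3 to 26159330 in CFPAC-1 positive replicate 1. Differences were tested on log2(RPKM + 0.1) with limma over the 16236 genes that averaged 0.1 RPKM or more. Each gene had 1 estimate of spread over the 4 groups, so the error and p-value for a line also draw on the spread in the other line. Calls required a p under 0.05 after Benjamini-Hochberg adjustment over all of these genes. A stricter rule, over 2-fold with an unadjusted p under 0.01, follows the thresholds of the study. Of the 10 genes, 9 passed the filter on low values and *CCND2* did not. Fold changes below are on the log2(RPKM + 0.1) scale, which understates the change of low genes, and errors are standard errors unless an SD is named.

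On GRCh37, *CCND1* lies on chromosome 11 (69455924 to 69469242, plus strand) and *CDKN1C* on the same chromosome (2904443 to 2907005, minus strand). *CCND2* (4378937 to 4414519) and *CDKN1B* (12838432 to 12875303) lie on the plus strand of chromosome 12. *CCND3* (41902672 to 42018095, minus strand) and *CDKN1A* (36644237 to 36655114, plus strand) lie on chromosome 6. *CCNE1* lies on chromosome 19 (30302898 to 30315219, plus strand), *CCNE2* on chromosome 8, *E2F1* on chromosome 20 (32263283 to 32274191, minus strand) and *RB1* on chromosome 13 (48877880 to 49173572, plus strand). Each RPKM is a value for a whole gene, so none belongs to 1 exon or isoform. Genes on the opposite strand overlap some of them, and the use of strand in counting is not given in the sources used here. *ORAOV1* (LTO1 in the annotation) overlaps *CCND1* and held 5.60 to 26.4 RPKM in the 12 samples, *INTS8* overlaps *CCNE2* and held 2.49 to 4.72 RPKM, *GPR19* overlaps *CDKN1B* and held 1.39 to 3.71 RPKM, and the share of reads that could have been counted for either gene of a pair was not tested.

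Antigen positive CFPAC-1 cells held more RNA of both E-type cyclins, of *E2F1*, of *CCND1* and *CCND3*, and of *CDKN1A* than antigen negative cells of the line. In SW1990 the same sort separated *CCND1*, *CCND3* and *E2F1*, all higher in positive cells by less than 1.5-fold, and *RB1* and *CDKN1C*, which were lower. In SW1990, 3 of the 9 genes tested rose in positive cells, against 11.3% of all genes tested, 2 fell, against 16.9%, and 4 were not called, with 28.2% of all genes called in either direction. In CFPAC-1, 6 of 9 rose, against 22.3% of all genes, none fell, against 14.2%, and 3 were not called, with 36.5% called in either direction. At an unadjusted limma p under 0.05, or with voom on recovered reads, the count of the 9 genes lower in CFPAC-1 was also 0. Over 2-fold and with an unadjusted p under 0.01, 1 of 9 was called in SW1990 (12.1% of all genes) and 4 of 9 in CFPAC-1 (9.78%). The median log2 fold change of the 9 genes was 0.14 in SW1990 and 0.74 in CFPAC-1, and that of all genes was -0.04 and 0.05. With each sample centred on its median, the share of higher genes among all calls in CFPAC-1 went from 61.1% to 47.8%, and the counts of these 9 genes stayed at 5 called in SW1990 and 6 in CFPAC-1. In bulk samples of this kind, fewer cells in a phase of the cycle and less RNA per cell cannot be told apart.

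**Figure D1:**
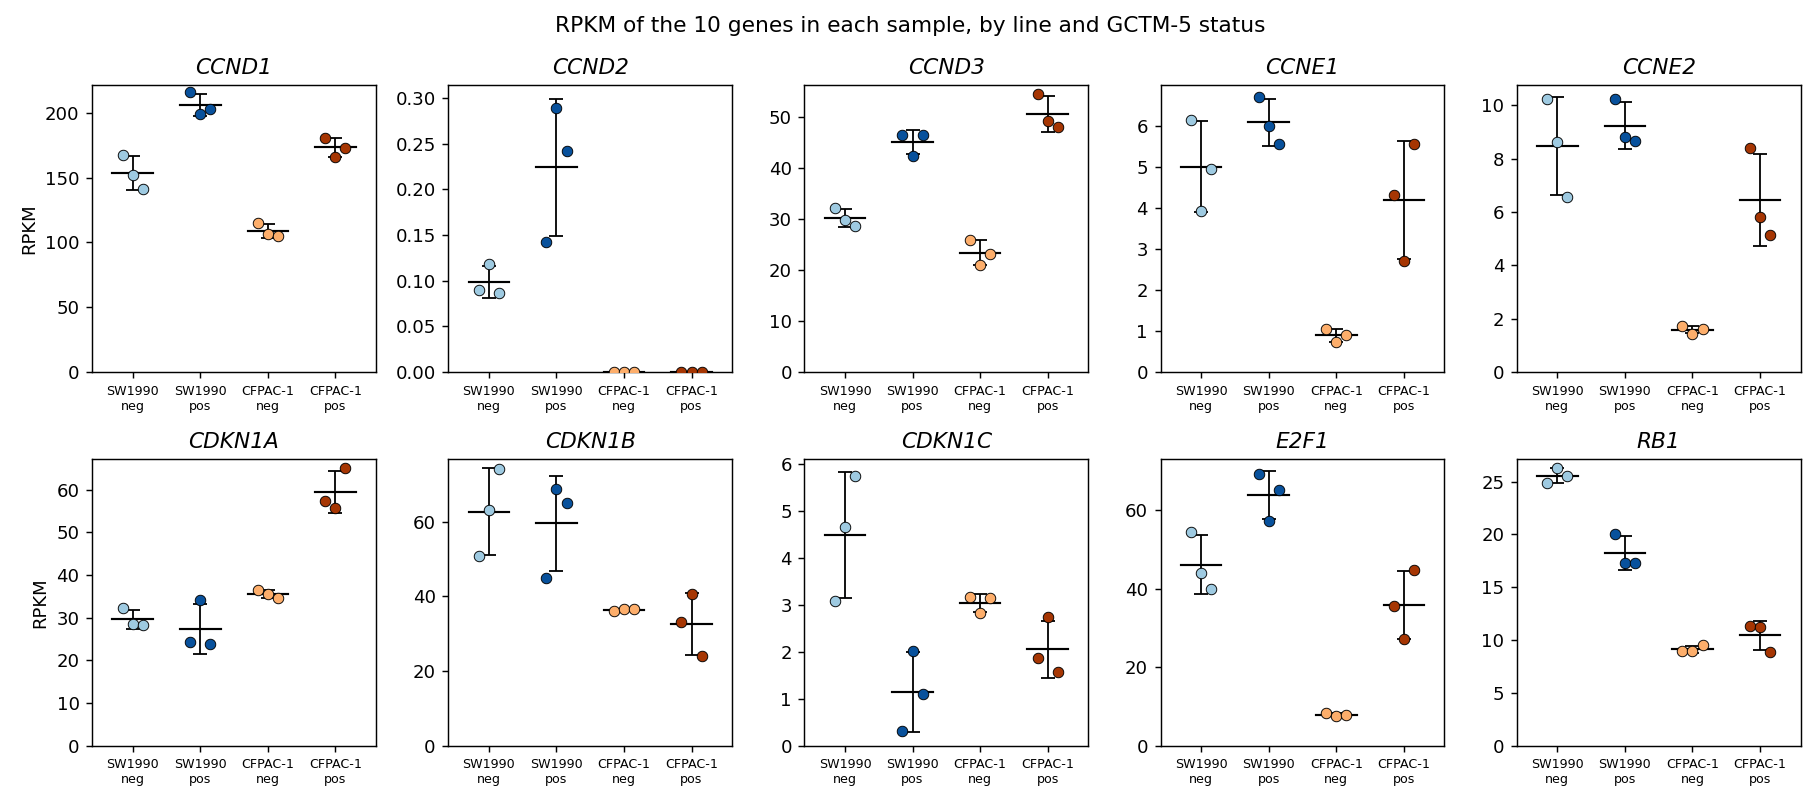
RPKM (linear axis from 0, one scale per gene) of the 10 genes in each of the 12 samples, by line and GCTM-5 status (neg, negative; pos, positive). Points are samples, wide bars the mean and error bars the SD of 3 samples. CFPAC-1 negative samples sit lowest for *CCND1*, *CCND3*, *CCNE1*, *CCNE2* and *E2F1*, and *CCND2* is at 0 in all 6 CFPAC-1 samples.

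*CCND1* was the most abundant of the 10 genes in every group. In SW1990 it was at 168, 152 and 141 RPKM in the negative samples and 216, 199 and 203 in the positive samples. In CFPAC-1 it was at 115, 106 and 105 RPKM in the negative and 181, 166 and 173 in the positive samples. Negative and positive samples did not overlap in either line. The log2 fold change was 0.42 ± 0.08 in SW1990 (limma adjusted p = 0.00242) and 0.67 ± 0.08 in CFPAC-1 (adjusted p = 0.000159), and the changes differed by -0.25 ± 0.12 between the lines (95% interval -0.50 to 0.01, adjusted p = 0.149).

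*CCND3* encodes the D-type cyclin that ranked below *CCND1* in all 4 groups. Its SW1990 levels were 32.1, 29.9 and 28.6 RPKM in the negative samples and 46.5, 42.3 and 46.5 in the positive samples. Its CFPAC-1 levels were 25.9, 21.0 and 23.2 RPKM in the negative samples and 54.6, 49.1 and 48.1 in the positive samples. The 12 samples fell into 4 separate ranges, with positive CFPAC-1 highest and negative CFPAC-1 lowest. *CCND3* rose by 0.58 ± 0.09 in SW1990 (limma adjusted p = 0.000613) and by 1.11 ± 0.09 in CFPAC-1 (adjusted p = 1.79e-05). The change was smaller in SW1990, with a difference of -0.54 ± 0.13 (adjusted p = 0.0112).

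*CCND2*, the remaining D-type cyclin, stood near the limit of the depth. It was at 0 reads in all 6 CFPAC-1 samples, where 3 reads would have been 0.0176 to 0.0462 RPKM. SW1990 held 10 to 18 reads in its negative samples, at 0.0895, 0.119 and 0.0867 RPKM, and 18 to 32 reads in the positive samples, at 0.142, 0.289 and 0.242 RPKM. The SW1990 groups did not overlap, and no test was made because the gene failed the filter. Against a floor of 3 reads in each CFPAC-1 library, mean RPKM was at least 4.35-fold higher in SW1990 among negative cells and at least 7.63-fold higher among positive cells. These bounds cover counting error only. The bounds and the reads of *CCND2* rest on a counted length of 6518 bases, 2 times the smallest that gave whole reads. The smallest length would lower both.

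Summed per sample, the D-type cyclins came to 184 ± 14.95 RPKM (SD, n = 3) in the negative and 251 ± 10.5 in the positive SW1990 cells, and to 132 ± 7.61 and 224 ± 10.3 in CFPAC-1. *CCND1* made up 83.5% ± 0.359 (SD) of that sum in the negative and 82.0% ± 0.597 in the positive SW1990 cells. In CFPAC-1 it made up 82.3% ± 1.01 in the negative and 77.4% ± 0.750 in positive cells, and *CCND3* made up the rest. The share of *CCND3* was higher in all positive samples than in all negative samples of each line. With 3 samples against 3, the 2-sided exact permutation p for each line was 0.1, the smallest this design allows, and 0.1875 after Benjamini-Hochberg adjustment over 15 shares.

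The E-type cyclins stood below *CCND1* and *CCND3* in every group. *CCNE1* was at 1.06, 0.728 and 0.902 RPKM in the negative and 4.32, 2.71 and 5.56 in the positive CFPAC-1 samples. In SW1990 it was at 6.15, 3.93 and 4.94 RPKM in the negative and 6.70, 5.99 and 5.57 in the positive samples. Every positive CFPAC-1 sample was above every negative one, whereas the SW1990 groups overlapped. *CCNE1* rose by 2.07 ± 0.25 in CFPAC-1 (limma adjusted p = 0.000121, 31 to 40 reads in the negative and 99 to 220 in the positive samples). In SW1990 the change was 0.30 ± 0.25 (95% interval -0.24 to 0.84, adjusted p = 0.421), and the difference between lines was -1.77 ± 0.35 (adjusted p = 0.00303).

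*CCNE2*, its paralog with the same kinase partner, showed the same order of the groups. It was at 1.71, 1.44 and 1.62 RPKM in the negative and 8.41, 5.80 and 5.15 in the positive CFPAC-1 samples. It was at 10.2, 8.62 and 6.55 RPKM in the negative and 10.2, 8.80 and 8.66 in the positive SW1990 samples. Positive CFPAC-1 cells overlapped negative SW1990 cells, and negative CFPAC-1 cells stood below both. The log2 fold change was 1.93 ± 0.20 in CFPAC-1 (limma adjusted p = 4.79e-05) and 0.14 ± 0.20 in SW1990 (95% interval -0.29 to 0.57, adjusted p = 0.651), with a difference of -1.78 ± 0.28 (adjusted p = 0.000687). The change in SW1990 was -0.029 without SW1990 negative replicate 3. The sum of both E-type cyclins was 2.49 ± 0.301 RPKM (SD, n = 3) in the negative and 10.7 ± 2.11 in the positive CFPAC-1 cells, against 13.5 ± 2.58 and 15.3 ± 1.44 in SW1990. *CCNE1* held 35.8% ± 2.28 of it in the negative and 39.2% ± 11.1 in the positive CFPAC-1 cells, and 37.3% ± 5.83 and 39.7% ± 0.710 in SW1990 (exact permutation p of 0.9 and 0.7, 2-sided).

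*E2F1* had the largest fold change of the 9 genes in CFPAC-1, close to those of the E-type cyclins. It was at 8.26, 7.50 and 7.91 RPKM in the negative and 35.6, 27.3 and 44.7 in the positive CFPAC-1 samples. It was at 54.5, 43.96 and 40.0 RPKM in the negative and 69.4, 57.3 and 65.2 in the positive SW1990 samples. Negative CFPAC-1 cells were far below the other 3 groups, and the ranges of positive CFPAC-1 and negative SW1990 cells overlapped. *E2F1* rose by 2.14 ± 0.16 in CFPAC-1 (limma adjusted p = 1.18e-05). In SW1990 the change was 0.48 ± 0.16, at an adjusted p of 0.0471 that lay close to the threshold: it was under 0.05 in 9 of 22 alternatives and reached 0.173 without SW1990 negative replicate 3. The change differed by -1.66 ± 0.23 between the lines (adjusted p = 0.000336).

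*E2F1* is itself a classical target of E2F factors, and its promoter is shown because *E2F1* moved together with other genes of that kind. Upstream sequences from the RefSeq promoter table (GRCh38.p14) were searched over the 250 bases before the start of each gene for TTTGGCGC, TTTGCCGC, TTTCGCGC and TTTCCCGC on both strands, where matches may overlap each other. Of the 10 genes, 6 had an entry, and *E2F1* alone of those had a match. The other genes with an entry, *CCND3*, *CCNE1*, *CDKN1A*, *CDKN1B* and *RB1*, did not hold these letters in this window, and *CCND1*, *CCND2*, *CCNE2* and *CDKN1C* had no entry. Of all 27305 genes in the table, 928 (3.40%) had a match, and of the 21 E2F targets of S phase with an entry, 9 (42.9%). The other lists were also above the share of all genes, with 5 of 20 G1/S partners (25.0%), 3 of 17 p53 targets (17.6%) and 3 of 19 mitotic genes (15.8%). The sequence of *E2F1* and those of the 3 E2F targets that had a match and the largest change in CFPAC-1 are shown 5′ to 3′, read on the strand of the gene, with the matches in capitals. Each was found once in GRCh37, *E2F1* at chr20:32274192-32274441 (minus), *GINS2* at chr16:85722561-85722810 (minus), *UHRF1* at chr19:4909263-4909512 (plus) and *PCNA* at chr20:5107269-5107518 (minus).
E2F1: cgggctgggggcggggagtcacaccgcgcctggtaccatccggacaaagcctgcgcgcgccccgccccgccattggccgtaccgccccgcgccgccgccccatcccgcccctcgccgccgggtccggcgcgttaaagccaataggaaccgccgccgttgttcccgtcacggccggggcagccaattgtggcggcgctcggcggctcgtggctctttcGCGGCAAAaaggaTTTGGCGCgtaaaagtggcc
GINS2: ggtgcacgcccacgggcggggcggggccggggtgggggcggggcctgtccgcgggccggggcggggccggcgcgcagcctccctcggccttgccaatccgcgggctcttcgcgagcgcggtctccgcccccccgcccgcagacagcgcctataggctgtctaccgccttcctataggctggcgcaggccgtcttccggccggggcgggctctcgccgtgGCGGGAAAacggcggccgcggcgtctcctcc
UHRF1: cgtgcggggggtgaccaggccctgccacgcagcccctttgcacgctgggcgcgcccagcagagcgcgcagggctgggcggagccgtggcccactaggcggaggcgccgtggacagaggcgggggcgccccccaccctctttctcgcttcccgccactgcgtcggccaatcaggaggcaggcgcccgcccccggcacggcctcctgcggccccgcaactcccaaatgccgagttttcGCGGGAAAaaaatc
PCNA: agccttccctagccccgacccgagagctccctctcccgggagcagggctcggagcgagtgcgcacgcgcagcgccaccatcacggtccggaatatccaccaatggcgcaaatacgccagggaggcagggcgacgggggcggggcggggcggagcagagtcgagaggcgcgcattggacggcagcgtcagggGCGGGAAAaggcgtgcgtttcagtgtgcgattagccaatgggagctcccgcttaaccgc

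The matches in *E2F1* began 33 and 20 bases before the start, as GCGGCAAA and TTTGGCGC. In *GINS2*, *UHRF1* and *PCNA*, GCGGGAAA began 31, 14 and 59 bases before the start. A match is a run of letters and was not tested as a binding site. *GINS2*, a subunit of the replicative helicase, was at 4.46 to 6.44 RPKM in the negative and 20.5 to 30.9 in the positive CFPAC-1 samples. *UHRF1*, which carries DNA methylation through replication, was at 2.07 to 2.68 and 8.67 to 11.5 RPKM, and *PCNA*, the sliding clamp of DNA polymerases, at 38.4 to 44.1 and 139 to 180 RPKM. Their log2 fold changes in CFPAC-1 were 2.30 ± 0.19, 2.02 ± 0.19 and 1.93 ± 0.13 (limma adjusted p = 1.59e-05, 3.31e-05 and 7.57e-06). In SW1990 they were 0.51 ± 0.19, 0.49 ± 0.19 and 0.41 ± 0.13 (adjusted p = 0.0657, 0.0818 and 0.0321).

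*RB1* went the other way in SW1990. It was at 24.9, 26.3 and 25.5 RPKM in the negative and 20.1, 17.3 and 17.3 in the positive SW1990 samples, and these ranges did not overlap. In CFPAC-1 it was at 8.98, 8.93 and 9.49 RPKM in the negative and 11.3, 11.2 and 8.85 in the positive samples, where the third positive sample lay below all 3 negative samples. *RB1* fell by 0.49 on the log2 scale in SW1990 (SE 0.11, limma adjusted p = 0.00443). In CFPAC-1 the change was 0.18 ± 0.11 (95% interval -0.05 to 0.42, adjusted p = 0.198), and 0.30 with an adjusted p of 0.0184 without positive replicate 3, the library with the fewest reads. The difference between lines was -0.68 ± 0.15 (adjusted p = 0.00626). *RCBTB2*, which overlaps *RB1* on the opposite strand, was at 3.13 to 4.12 RPKM in the negative and 1.47 to 2.13 in the positive SW1990 samples. *LPAR6*, which lies within *RB1* on the opposite strand, was at 3.92 to 4.69 RPKM in the negative and 1.93 to 2.03 in the positive CFPAC-1 samples. The part of these genes in the *RB1* results was not tested. The ratio of *E2F1* to *RB1* RPKM, formed after the values were seen, was 0.865 ± 0.0479 (SD, n = 3) in the negative and 3.54 ± 1.35 in the positive CFPAC-1 cells, and 1.81 ± 0.334 and 3.51 ± 0.235 in SW1990. Antigen positive cells of the lines thus overlapped in this ratio, and negative cells did not.

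**Figure D2:**
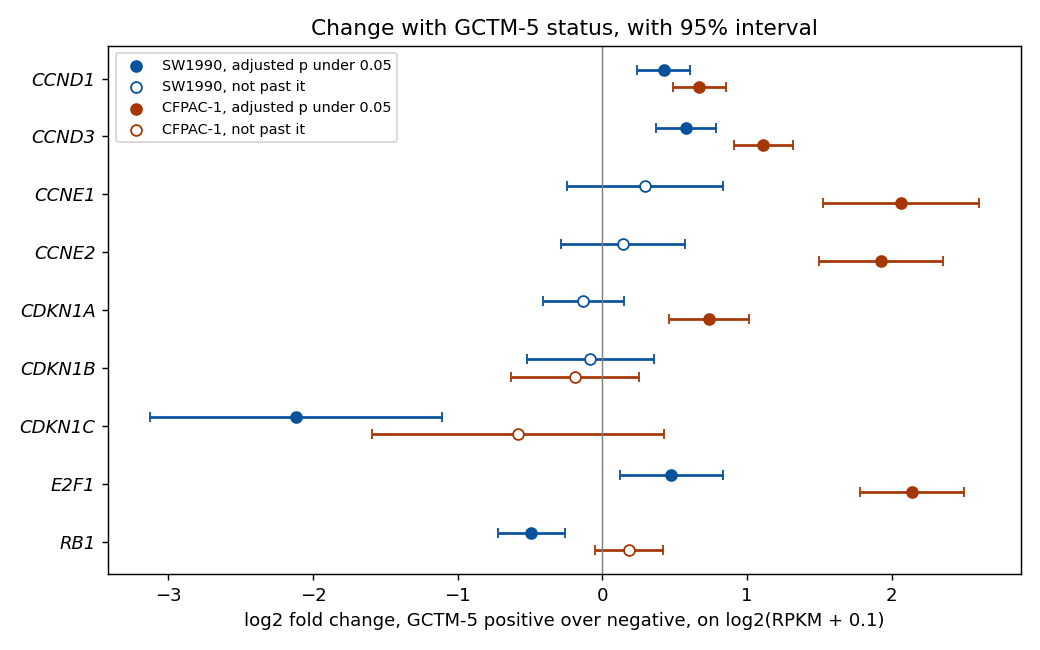
Log2 fold change of antigen positive over negative cells on log2(RPKM + 0.1), with 95% intervals from limma, for the 9 genes tested in SW1990 (blue) and CFPAC-1 (brown). Filled points passed an adjusted p of 0.05. *E2F1*, *CCNE1* and *CCNE2* lie between 1.93 and 2.14 in CFPAC-1 and between 0.14 and 0.48 in SW1990, and *CDKN1C* has the widest intervals.

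Of the 3 CDK inhibitors, *CDKN1A* was called in CFPAC-1, *CDKN1C* in SW1990 and *CDKN1B* in neither line. *CDKN1A* was at 36.4, 35.5 and 34.7 RPKM in the negative and 57.5, 55.8 and 65.1 in the positive CFPAC-1 samples. In SW1990 it was at 32.2, 28.5 and 28.3 RPKM in the negative and 24.3, 34.2 and 23.8 in the positive samples. Positive CFPAC-1 cells were above all other samples, and in SW1990 positive replicate 2 was above and the other positive samples were below all negative samples. *CDKN1A* rose by 0.74 ± 0.13 in CFPAC-1 (limma adjusted p = 0.00108). In SW1990 the change was -0.13 ± 0.13 (95% interval -0.41 to 0.15, adjusted p = 0.502), and -0.30 with an adjusted p of 0.0437 without SW1990 positive replicate 2. The difference between lines was -0.87 ± 0.18 (adjusted p = 0.00411).

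*CDKN1B* was at 50.8, 63.2 and 74.1 RPKM in the negative and 45.0, 68.7 and 65.0 in the positive SW1990 samples. It was at 36.1, 36.6 and 36.6 RPKM in the negative and 33.2, 40.7 and 24.1 in the positive CFPAC-1 samples. Samples of a group spread widely in all groups except negative CFPAC-1 cells. The changes were -0.08 ± 0.20 in SW1990 (95% interval -0.52 to 0.36, limma adjusted p = 0.817) and -0.19 ± 0.20 in CFPAC-1 (95% interval -0.63 to 0.25, adjusted p = 0.497), and their difference was 0.11 ± 0.29 (adjusted p = 0.815).

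*CDKN1C*, an imprinted gene, was the lowest of the 3 inhibitors and fell in SW1990. It was at 3.08, 4.65 and 5.74 RPKM in the negative and 0.321, 2.01 and 1.11 in the positive SW1990 samples, on 122 to 209 and 12 to 66 reads. It was at 3.17, 2.82 and 3.14 RPKM in the negative and 1.86, 2.73 and 1.56 in the positive CFPAC-1 samples. In each line all positive samples lay below all negative samples, by a small margin in CFPAC-1. *CDKN1C* fell by 2.12 on the log2 scale in SW1990 (SE 0.46, limma adjusted p = 0.00456), by 1.48 without SW1990 positive replicate 1, the sample with 12 reads, and by 1.40 with a pseudocount of 1. With SW1990 fitted alone its adjusted p was 0.0596. In CFPAC-1 the change was -0.58 ± 0.46 (95% interval -1.59 to 0.43, adjusted p = 0.352), and the difference between lines was -1.54 ± 0.65 (adjusted p = 0.104). That difference was called without SW1990 positive replicate 2, at -2.06 (adjusted p = 0.0208), and with voom, at -1.72 (adjusted p = 0.0421).

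Together the 3 inhibitors came to 75.0 ± 0.633 RPKM (SD, n = 3) in the negative and 94.2 ± 4.49 in the positive CFPAC-1 cells, and to 96.9 ± 11.02 and 88.1 ± 17.7 in SW1990. In CFPAC-1 *CDKN1A* made up 47.4% ± 0.760 (SD) of the sum in the negative and 63.4% ± 7.83 in positive cells, and *CDKN1B* 48.6% ± 0.777 and 34.5% ± 7.33. In SW1990 *CDKN1B* led in both populations, with 64.4% ± 4.87 and 67.5% ± 4.20. The share of *CDKN1C* was 4.57% ± 0.897 in the negative and 1.21% ± 0.731 in the positive SW1990 cells, and 4.06% ± 0.254 and 2.16% ± 0.533 in CFPAC-1. Exact permutation p was again 0.1 for *CDKN1A* and *CDKN1B* in CFPAC-1 and for *CDKN1C* in each line (2-sided, 0.1875 adjusted over 15 shares), and 0.9 and 0.6 for *CDKN1A* and *CDKN1B* in SW1990.

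**Figure D3:**
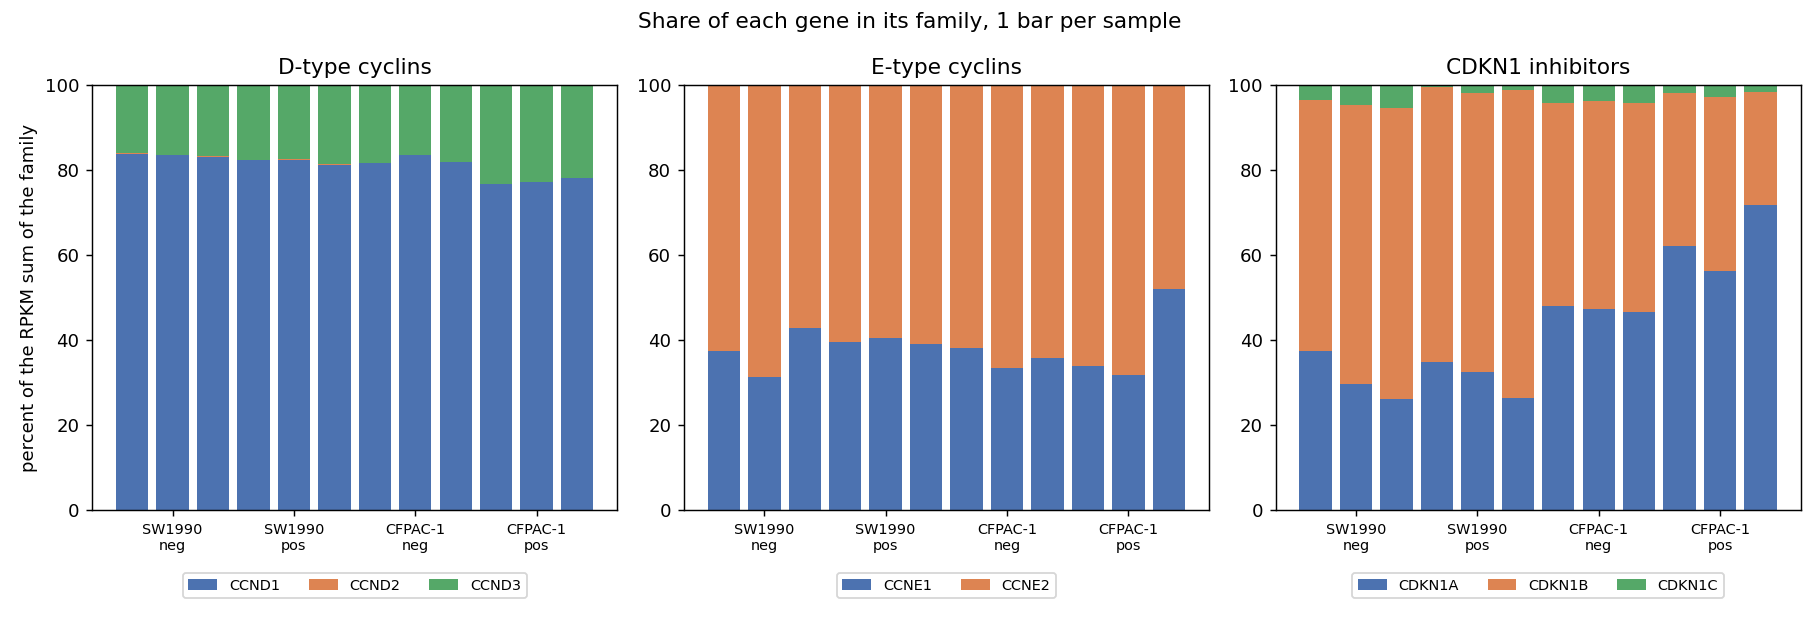
Share of each gene in the RPKM sum of its family (percent), with 1 bar for each of the 12 samples in 4 groups of 3. *CDKN1A* takes a larger share of the CDKN1 sum in the 3 positive CFPAC-1 samples (mean 63.4%) than in the negative ones (47.4%), and *CCND1* leads the D-type cyclins throughout.

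The change with antigen status was tested for a difference between the lines directly. Of the 9 genes, 6 differed, all with a lower value in SW1990 than in CFPAC-1, against 17.8% of all genes lower and 26.9% in either direction. These were *CCNE2*, *CCNE1*, *E2F1*, *CDKN1A*, *RB1* and *CCND3*. By the stricter rule 3 of them, *CCNE2*, *CCNE1* and *E2F1*, differed (14.2% of all genes). Over all genes the median difference was -0.15 as deposited, and with each sample centred on its median the share of higher genes among all calls went from 34% to 50%. On that centred scale the differences were -1.64 for *CCNE2*, -1.62 for *CCNE1*, -1.52 for *E2F1*, -0.72 for *CDKN1A*, -0.53 for *RB1* and -0.39 for *CCND3*, and all 6 were still called, with a highest adjusted p of 0.0456 for *CCND3*.

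Levels were also compared between the lines at the same antigen status. Among negative cells, 7 of 9 genes were higher in SW1990 (40.7% of all genes were higher, 68.9% differed in either direction), 0 were lower (0 also at an unadjusted limma p under 0.05 and with voom), and 4 passed the stricter rule (36.9% of all genes). The log2 differences of SW1990 over CFPAC-1 were 2.52 ± 0.16 for *E2F1*, 2.35 ± 0.25 for *CCNE1*, 2.32 ± 0.20 for *CCNE2* and 1.48 ± 0.11 for *RB1*, followed by 0.77 ± 0.20 for *CDKN1B*, 0.50 ± 0.08 for *CCND1* and 0.37 ± 0.09 for *CCND3*. Over all genes the median was 0.19, and on the centred scale *CCND3* was at 0.18 with an adjusted p of 0.0933, while *CDKN1A*, not called as deposited at -0.26 ± 0.13 (adjusted p = 0.0852), was at -0.45 with an adjusted p of 0.00712. *CDKN1C* was not called, at 0.50 ± 0.46.

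Among positive cells the distance between the lines was smaller for the E-type cyclins and *E2F1*. This restates the difference of the changes given above and is not a separate result. There, 5 of 9 genes were higher in SW1990 (32.9% of all genes), 1 was lower (29.3%), 62.3% of all genes differed in either direction, and 1 of 9 passed the stricter rule (28.5%). *CDKN1B* was higher by 0.87 ± 0.20, *E2F1* by 0.86 ± 0.16, *RB1* by 0.80 ± 0.11, *CCNE2* by 0.54 ± 0.20 and *CCND1* by 0.25 ± 0.08, with adjusted p-values from limma between 4.11e-05 and 0.0313. *CDKN1A* was lower, at -1.13 ± 0.13 (adjusted p = 9.97e-06). *CCNE1* at 0.58 ± 0.25 (adjusted p = 0.0587), *CCND3* at -0.16 ± 0.09 and *CDKN1C* at -1.03 ± 0.46 (adjusted p = 0.0701) were not called. *CCNE1* was called with a pseudocount of 1 (adjusted p = 0.0468), with voom (0.0222) and without CFPAC-1 positive replicate 3, at 0.81 (0.0131). *CDKN1C* was called with voom (0.0439) and without SW1990 positive replicate 2, at -1.55 (0.00686). The call of *CCND1* was lost with centring (adjusted p = 0.0527) and without CFPAC-1 positive replicate 2 or SW1990 positive replicate 1, and that of *CCNE2* without any one of CFPAC-1 positive replicates 2 and 3 and the 3 positive SW1990 replicates.

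Other genes of the pathway, in 4 lists, were set beside these results. The E2F targets of S phase are mostly genes for replication licensing, nucleotide supply and DNA synthesis, with *CHAF1A*, *UHRF1*, *SLBP* and *MYBL2* beside them. In CFPAC-1 all 24 of 24 rose in positive cells, against 22.3% of all genes, and 23 passed the stricter rule, against 9.78% in either direction. Their median log2 fold change was 1.89 against 0.05 for all genes. The called genes with the largest changes were *CDC45* at 2.62 ± 0.41, *GINS2* at 2.30 ± 0.19 and the licensing factor *CDC6* at 2.28 ± 0.14, although *CDC45* rested on 6 to 10 reads in the negative samples. In SW1990, 8 of 24 rose, against 11.3% of all genes. None fell (0 also at an unadjusted limma p under 0.05 and with voom), against 16.9%. The median was 0.39 against -0.04 for all genes, with *CDC6* at 0.81 ± 0.14, *CDT1* at 0.54 ± 0.14 and *MCM2* at 0.49 ± 0.12 the largest. The count of 8 depended on single samples. It was 2 without SW1990 negative replicate 3 or SW1990 positive replicate 1, 3 without SW1990 positive replicate 3, and 5 without SW1990 negative replicate 2 or CFPAC-1 negative replicate 2. The difference between lines was called for 23 of 24, all lower in SW1990, against 17.8% of all genes lower.

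The partners of the 10 genes were 23 kinases, inhibitors, E2F factors and their relatives. In CFPAC-1, 14 rose and 4 fell (median 0.60), where 22.3% of all genes were higher and 14.2% lower, and the largest changes were those of *E2F2* at 2.41 ± 0.19, the phosphatase *CDC25A* at 2.30 ± 0.21 and *CDK2* at 1.72 ± 0.15. In SW1990, 4 rose and 3 fell (median 0.03), which is close to the 11.3% of all genes higher and 16.9% lower, with the E2F dimerisation partner *TFDP2* at -1.38 ± 0.13, the INK4 inhibitor *CDKN2C* at -0.92 ± 0.10 and *CDC25A* at 0.78 ± 0.21. In SW1990 the count that rose was 2 without SW1990 negative replicate 3 or SW1990 positive replicate 1, and the count that fell was 5 without CFPAC-1 positive replicate 3. The count that fell in CFPAC-1 was 2 without CFPAC-1 negative replicate 1 or 3. *CDK2*, the kinase of the E-type cyclins, was at 14.3 to 19.4 RPKM in the negative and 44.7 to 68.1 in the positive CFPAC-1 samples, and at 39.5 to 46.4 and 55.5 to 60.2 in SW1990. The lines also differed in INK4 inhibitors, a pair named here after their values were seen. *CDKN2A* and *CDKN2B* had 0 reads in all 6 SW1990 samples, which allows up to 3 reads in each. In CFPAC-1 *CDKN2A* averaged 50.2 RPKM in the negative and 68.0 in positive cells, at least 704-fold and 847-fold higher than in SW1990, and *CDKN2B* averaged 15.3 and 11.7 RPKM, at least 411-fold and 279-fold higher. As for *CCND2*, these bounds cover counting error only.

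Mitotic genes act after S phase. In CFPAC-1, 22 of 24 rose with a median of 0.81, against 22.3% of all genes higher. The largest were *AURKB* at 1.26 ± 0.18, *MKI67* at 1.15 ± 0.17 and *CDC20* at 1.14 ± 0.17. In SW1990, 1 of 24 rose, *PLK1* at 0.59 ± 0.12, against 11.3% of all genes. The median over the list was 0.25, and 20 of 24 had a fitted change above 0, against 45.6% of all genes. That count of 1 was 4 with centring, 3 without CFPAC-1 positive replicate 3 or SW1990 negative replicate 1, and 2 without CFPAC-1 negative replicate 2, CFPAC-1 positive replicate 1 or 2, or SW1990 positive replicate 2. Of 22 p53 targets other than *CDKN1A*, 5 rose and 6 fell in CFPAC-1 (median -0.21), and the share that rose is close to the 22.3% of all genes, with 14.2% of all genes lower. The largest were *BTG2* at -1.80 ± 0.35, *TP53INP1* at -1.69 ± 0.35 and *BAX* at 1.05 ± 0.18. In SW1990, 2 rose and 8 fell (median -0.28), against 11.3% of all genes higher and 16.9% lower, led by *TP53INP1* at -2.75 ± 0.35, *ZMAT3* at -1.37 ± 0.20 and *BTG2* at -1.17 ± 0.35. The count of 8 was 3 without SW1990 negative replicate 1 and 5 without SW1990 positive replicate 1 or 2, and that of 2 was 1 without SW1990 negative replicate 1 or SW1990 positive replicate 2 or 3. In CFPAC-1 the count of 5 was 3 without negative replicate 2 or 3. These genes include *BTG2* and *TP53INP1*, which slow proliferation, and *ZMAT3*, which binds RNA.

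**Figure D4:**
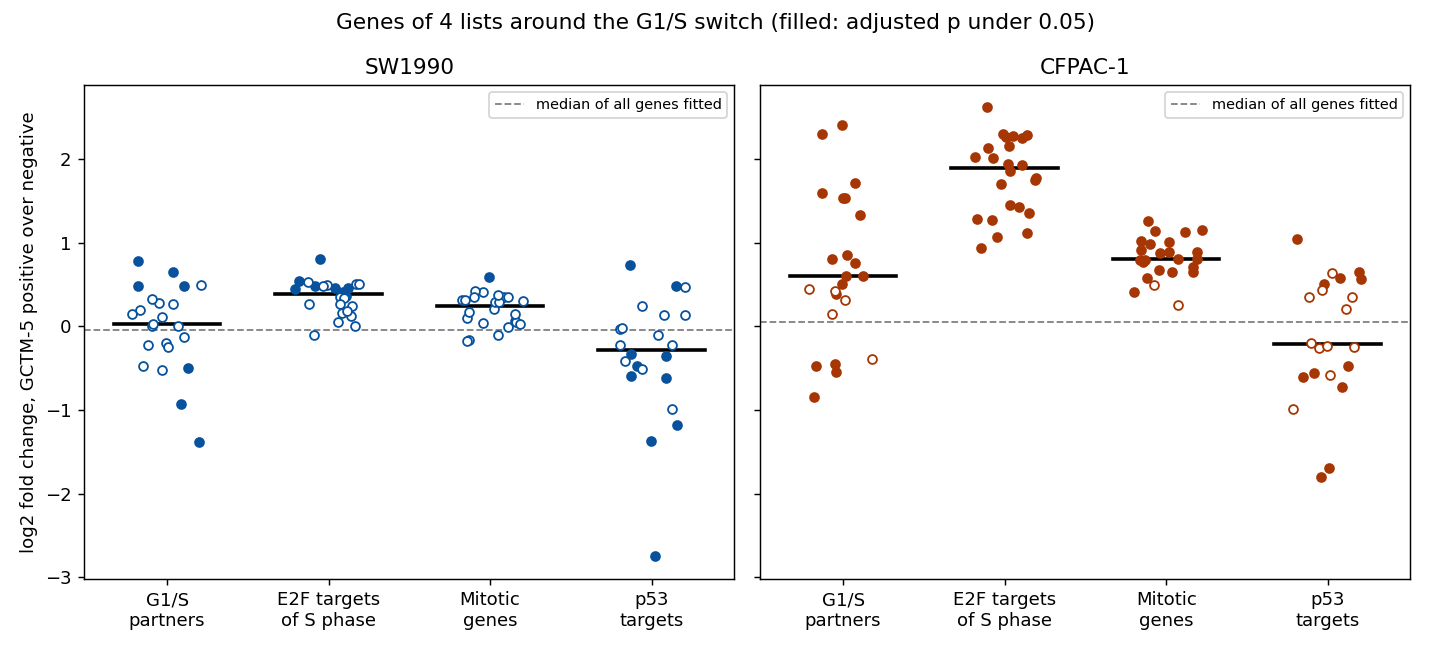
Log2 fold change of antigen positive over negative cells for each gene of 4 lists, in SW1990 (left) and CFPAC-1 (right). Points are genes, filled at an adjusted p under 0.05, black bars are list medians and the dashed line is the median of all genes fitted. All 24 E2F targets lie above 0.93 in CFPAC-1, and their median in SW1990 is 0.39.

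The genes with the most similar pattern over the 12 samples were found by Pearson correlation of log2(RPKM + 0.1) among the other 13266 genes that averaged 1 RPKM or more. For *E2F1* these were *RECQL4* (r = 0.995) and *HPDL* (0.993), and for *CCNE1* they were *E2F1* itself (0.987) and *RECQL4* (0.986). *CCNE2* was closest to *SMC2* (0.991) and *TARDBP* (0.988), *CCND1* to *GEMIN4* (0.990) and *NID2* (0.984), and *CCND3* to *CHST11* (0.990) and *FANCC* (0.975). *CDKN1A* was closest to *PRIM1* (0.968) and *RPSAP52* (0.966), *CDKN1B* to *UBXN4* (0.971), *CDKN1C* to *ZNF230* (0.966) and *SHISA4* (0.964), and *RB1* to *SDPR* (0.992) and *S1PR1* (0.991). The 12 points share 2 lines and their libraries, so these values describe the 4 groups as much as the genes.

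Markers of epithelial cells were present in every sample, and their sum also moved with the sort. The summed RPKM of 6 epithelial markers was 1595 to 1942 in the negative and 4360 to 4841 in the positive SW1990 cells, with *EPCAM* at 18.0 to 27.2 and 162 to 191 RPKM, and 5411 to 6173 and 6676 to 8162 in CFPAC-1. In SW1990, 5 of these 6 were called higher in positive cells, against 11.3% of all genes. In CFPAC-1, 3 of 6 were, against 22.3% of all genes. *EPCAM* and *KRT19* were not called there, at 223 to 250 and 2654 to 3048 RPKM in the negative samples. In the positive CFPAC-1 samples they were at 187 to 258 and 2331 to 2744 RPKM. In negative SW1990 cells 4 endothelial markers summed to 14.9 to 18.9 RPKM and 6 fibroblast markers to 12.7 to 22.6 RPKM, against 1.47 to 2.05 and 3.90 to 4.86 in positive cells, where *COL1A2*, *COL3A1* and *DCN* were at 0. Most of the endothelial sum in the negative cells was *CDH5*, which averaged 15.6 RPKM, against 0.717 for *PECAM1*, 0.202 for *VWF* and 0.107 for *TEK*. *LUM* averaged 13.2 RPKM there, *COL1A1* 3.57 and *PDGFRB* 1.76, and *COL1A2*, *COL3A1* and *DCN* averaged 0.0598, 0.0308 and 0.0114. In CFPAC-1 the endothelial markers summed to at most 0.485 RPKM and the fibroblast markers to at most 2.39, with *COL3A1* and *DCN* at 0 in both populations. The 5 leukocyte markers summed to 0.905 to 1.84 RPKM in the negative and 0.268 to 0.326 in the positive SW1990 cells, and to 8.69 to 9.57 and 2.64 to 4.38 in CFPAC-1, with *TYROBP* at 0 in all 12 samples. Nearly all of each sum was *CD14*, which averaged 1.47 and 0.287 RPKM in SW1990 and 9.23 and 3.19 in CFPAC-1. The part of these markers in the results for the cyclins, inhibitors, *E2F1* and *RB1* was not tested.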

How the data were processed

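The 12 RNA-seq samples were grouped by line and antigen status from their titles. Per the study's methods, the authors aligned reads to hg19 (GRCh37), and the deposited values are RPKM that they computed with QuasR. The annotation and the use of strand are not given in the sources used here. The labels name a strand-specific kit and the study's methods a TruSeq kit. The labels also name Iscove's medium and a peroxidase secondary antibody, where the study's methods name RPMI medium and an Alexa secondary antibody.

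Of 23346 genes, the 16236 that averaged 0.1 RPKM or more were kept. A linear model of log2(RPKM + 0.1) was made with limma 3.58.1 under R 4.3.3 (4 group means, no covariates, eBayes with an intensity trend, 2-sided), which was tested on simulated data first. The study names TCC, which was not used here. Library totals and reads were recovered as the whole numbers, within 0.01 of a read, behind the values of single-exon genes of GENCODE 44 and then of every gene. They served for depth, for the floor of 3 reads and for an added fit with voom. Shares of a family were compared by exact permutation (scipy 1.17.1) and summed RPKM described with SD. Intervals are 95%.

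The 10 genes, the lists and the promoters shown were chosen with earlier results of these data known. Named from each list were the called genes with the 3 largest absolute changes in each line. For each tested gene the 2 genes with the most similar pattern were named, apart from 1 that is not reported here. Alternatives were the pseudocount, the filter, centring, quantile normalization, a replicate block, eBayes without a trend, each line alone, the stricter rule and each sample left out. Read recovery assumes whole reads and may miss a common factor in low genes, as for *CCND2*, whose length was taken as the multiple nearest to an annotated transcript.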

Additional observations from a re-analysis of the deposited data

Results flagged for a closer look

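For 6 genes the change with antigen status differed between the lines by limma's test of the difference itself, taken as the change in SW1990 minus the change in CFPAC-1 on the log2 scale. The values were -1.78 for *CCNE2* (adjusted p = 0.000687), -1.77 for *CCNE1* (adjusted p = 0.00303), -1.66 for *E2F1* (adjusted p = 0.000336), -0.87 for *CDKN1A* (adjusted p = 0.00411), -0.68 for *RB1* (adjusted p = 0.00626) and -0.54 for *CCND3* (adjusted p = 0.0112). *CCNE2*, *CCNE1* and *CDKN1A* were called in CFPAC-1 and not in SW1990, *RB1* in SW1990 and not in CFPAC-1, and *E2F1* and *CCND3* in both lines with a smaller change in SW1990. The call of *E2F1* in SW1990 (limma adjusted p = 0.0471) held in 9 of 22 alternatives.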

How the results depend on the processing

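The count of the 9 genes called kept within 1.5 times its value in each of the 5 comparisons under every alternative other than those named here. In SW1990 it was 3 with each line fitted alone and 1 by the stricter rule, in place of 5. By the stricter rule it was 3 in place of 6 for the difference between lines, 4 in place of 7 among negative cells and 1 in place of 6 among positive cells. With each sample left out in turn, changes that were not called crossed 0: *CDKN1B* ranged from -0.22 to 0.11 in SW1990, from -0.36 to 0.013 in CFPAC-1 and from -0.094 to 0.30 for the difference between lines, and *CCNE2* from -0.029 to 0.29 in SW1990. The causes were not tested.

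Deviations from the group means correlated between same-numbered samples at 0.185, 0.0163 and 0.116 in SW1990 and -0.0195, 0.00126 and -0.0593 in CFPAC-1. Between negative and positive samples of different numbers the values ranged from -0.254 to 0.162 in SW1990 and from -0.0326 to 0.0423 in CFPAC-1. Whether a replicate number pairs samples in SW1990 was not settled by these values. With a replicate block, 13 E2F targets in place of 8 and 2 mitotic genes in place of 1 were called higher in SW1990, and of the 9 genes 8 in place of 6 were called between the lines among positive cells, with *CCNE1* (adjusted p = 0.0235) and *CDKN1C* (adjusted p = 0.0450) added. The share of all genes called with the block was not computed. The added calls therefore cannot be told from a general rise in calls.

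For the lists in SW1990, the stricter rule called 0 G1/S partners higher and 1 lower, 0 E2F targets, 0 mitotic genes, and 0 p53 targets higher and 3 lower. In CFPAC-1 it called 7 G1/S partners higher and 0 lower, 6 mitotic genes, and 1 p53 target higher and 2 lower. Over all genes the stricter rule called 12.1% in SW1990 and 9.78% in CFPAC-1, in either direction. E2F targets higher in SW1990 numbered 3 without the trend and 3 with each line alone. Mitotic genes higher in SW1990 numbered 4 with centring, 2 with quantile normalization, 2 with each line alone and 3 with voom on recovered reads, which was added after seeing the data. p53 targets higher in CFPAC-1 numbered 3 with each line alone. With each sample left out in turn, the counts in SW1990 ranged from 2 to 6 for G1/S partners higher and 2 to 5 lower, 2 to 11 for E2F targets higher, 1 to 3 for mitotic genes higher, and 1 to 2 for p53 targets higher and 3 to 9 lower. In CFPAC-1 they ranged from 2 to 4 for G1/S partners lower and 3 to 6 for p53 targets higher, and all 24 E2F targets were called each time. Depth limits *CCND2*, at 0 reads in CFPAC-1, and *CDKN1C*, at 12 reads in 1 sample.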
